A study of Mus musculus with 6 samples.

Results

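The genes described are 10 transcription factor genes of the AP-1 and immediate early response, namely *Fos*, *Fosb*, *Fosl1*, *Fosl2*, *Jun*, *Junb*, *Jund*, *Atf3*, *Egr1* and *Egr2*. They were chosen by name, and all 10 were found among the 53379 genes of the deposited table, each in a single row. Neural stem cells (NSCs), dividing cells that can form neurons and glia, were taken from the embryonic mouse cortex at E14.5 and kept as neurospheres with EGF and bFGF, so that every library comes from cells under growth factor stimulation. All cells were *Tbl1xr1* flox/flox and were infected with a lentivirus carrying Cre-GFP (3 libraries labelled Cre, replicates 2, 2_2 and 3) or GFP alone (3 control libraries, replicates 1, 1_1 and 2). Cells with GFP were then sorted. The promoter that drives Cre is not given in the sources used here, and no untreated or growth factor-starved cells were analysed here. No label ties a library to a culture or an embryo, so the p-values measure only the spread between these libraries, which may be technical.

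AP-1 is a pair of bZIP proteins bound to DNA together, a FOS protein with a JUN protein or 2 JUN proteins, and FOS proteins do not pair with each other. In quiescent cells most of these genes are nearly silent, and within minutes of a growth factor, serum or stress the MAPK cascade activates factors already sitting at their promoters, so that transcription starts without new protein synthesis. The transcripts are short-lived, and a steadily growing culture therefore shows the level at the moment of harvest. EGR proteins are zinc finger factors of the same early response and bind GC-rich sites.

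The promoters of *Fos*, *Jun* and *Egr2* are shown because *Fos* and *Jun* had the highest levels of their families and *Egr2* was the only member with a CArG box (the site of serum response factor) in the windows searched. Each is the 250 bases before the start site in RefSeq, build GRCm38.p6, 5′ to 3′ on the strand of the gene, with CArG boxes, the CRE core TGACG (either strand, so also as CGTCA) and the TATA box TATAAA in capitals.
Fos, chr12:85473640-85473889, plus strand: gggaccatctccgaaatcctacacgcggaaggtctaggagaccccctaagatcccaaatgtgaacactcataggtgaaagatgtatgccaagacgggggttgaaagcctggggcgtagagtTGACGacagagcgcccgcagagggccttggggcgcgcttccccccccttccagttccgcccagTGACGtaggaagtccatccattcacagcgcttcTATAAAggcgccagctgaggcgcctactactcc
Jun, chr4:95052223-95052472, minus strand: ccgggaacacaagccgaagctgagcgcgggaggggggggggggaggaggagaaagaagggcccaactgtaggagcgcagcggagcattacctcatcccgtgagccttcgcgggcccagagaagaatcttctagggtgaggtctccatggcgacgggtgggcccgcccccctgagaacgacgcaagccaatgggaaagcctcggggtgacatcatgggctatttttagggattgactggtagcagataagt
Egr2, chr10:67537619-67537868, plus strand: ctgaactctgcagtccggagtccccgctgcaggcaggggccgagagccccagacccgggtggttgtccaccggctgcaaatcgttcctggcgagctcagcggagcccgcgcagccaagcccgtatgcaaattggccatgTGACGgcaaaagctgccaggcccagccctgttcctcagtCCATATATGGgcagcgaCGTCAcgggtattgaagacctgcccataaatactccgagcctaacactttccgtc
The *Fos* window held the CRE core at positions -129 and -66 and the TATA box at -33, counted from the start site. The *Egr2* window held a CArG box at -72 and the CRE core at -111 and -55. None of these 3 motifs was found in the *Jun* window.

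RefSeq windows of 300 bases (250 before to 50 after a start site) were searched for 8 of the 10 members. *Fosl1* and *Egr1* were not searched. Nothing further than 250 bases before a start site was searched, so a motif not found here may lie further upstream. A CArG box was in 1 of these 8 members, *Egr2*, in 4 of its 5 windows, of which several overlap, against 1.63% of all 32851 windows. The CRE core TGACG was in 5 of 8 members (*Fos*, *Fosb*, *Junb*, *Atf3* and *Egr2*) and in 20.8% of all windows. A member counts here if any of its windows holds the motif, while the shares over all windows are per window. Counted per window, the members held a CArG box in 4 of 12 and the CRE core in 7 of 12. The full CRE TGACGTCA, which holds the core, was in 0 of 8 members and 1.79% of all windows, and the AP-1 site TGACTCA or TGAGTCA, which are the same site on either strand, in 0 of 8 and 5.2%. The EGR site GCGNGGGCG was in 2 of 8, *Fosb* and *Fosl2*, and in 5.55% of all windows, and TATAAA in 2 of 8, *Fos* and *Junb*, and in 13.6%. The *Junb* match lay at the start site, not upstream of it as in *Fos* (-33). Only exact matches were counted, so near variants of a site were missed. The *Jun* window above, for example, holds TGACATCA, which differs from the full CRE in a single letter. The matches are descriptions of the letters and do not show binding.

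The libraries held between 7510615 and 11161497 reads on genes in control and between 11893230 and 14828100 in the Cre-labelled group. Every Cre-labelled library was thus deeper than every control library, so raw reads quoted below are not comparable between the groups. Values are normalized counts, which are reads divided by the size factor of the library, so that 1 read is worth between 0.693 and 1.46. The mRNA of the targeted gene *Tbl1xr1* was not lower in the Cre-labelled libraries, at 2905.5 to 3774.4 against 2189.8 to 2720.6 in control (log2 fold change 0.45, SE 0.14, limma adjusted p = 0.06). The loxP sites flank exon V, while the count covers the whole gene, so this value does not check the deletion of that exon. The authors reported that *Tbl1xr1* mRNA (by RT-qPCR) and protein (by Western blot) were absent from the sorted Cre-GFP cells. The related gene *Tbl1x*, named after its values were seen, was at 1574 to 1651.8 in control and 1932.2 to 2068.7 in the Cre-labelled libraries (log2 fold change 0.32, limma adjusted p = 0.0847). Directions are given by label. A gene is called where limma gave a Benjamini-Hochberg adjusted p-value under 0.05 over the 14840 genes whose mean normalized count reached 10. By this rule 9.96% of tested genes were called, 4.74% with Cre higher and 5.22% with Cre lower.

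Of the 10 members, 9 passed the filter on low values and 1 was called, *Egr1*, which rose. This is 11.1% of the tested members, close to the 9.96% of all tested genes. The median log2 fold change of the 9 was 0.12, beside -0.001 over all tested genes, with 6 of 9 above 0 and 3 below. At an unadjusted limma p-value under 0.05 there were 2 of 9 higher (*Egr1* and *Egr2*) and 0 lower. The share of all tested genes under this unadjusted cut-off is not given, here or for the lists below, so such counts have no background. limma, edgeR and DESeq2 each called 0 members lower. With edgeR on the recovered reads 1 member was called, *Egr1*, beside 9.99% of tested genes, and with DESeq2 it was joined by *Egr2*, beside 11.8%. *Egr1* was also the only tested member whose 3 Cre-labelled libraries did not overlap the 3 control libraries, which happened in 30.3% of all tested genes (14.7% with Cre higher). In RNA from whole cultures, a change in the share of responding cells and a change in transcript per cell cannot be told apart.

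**Figure D1:**
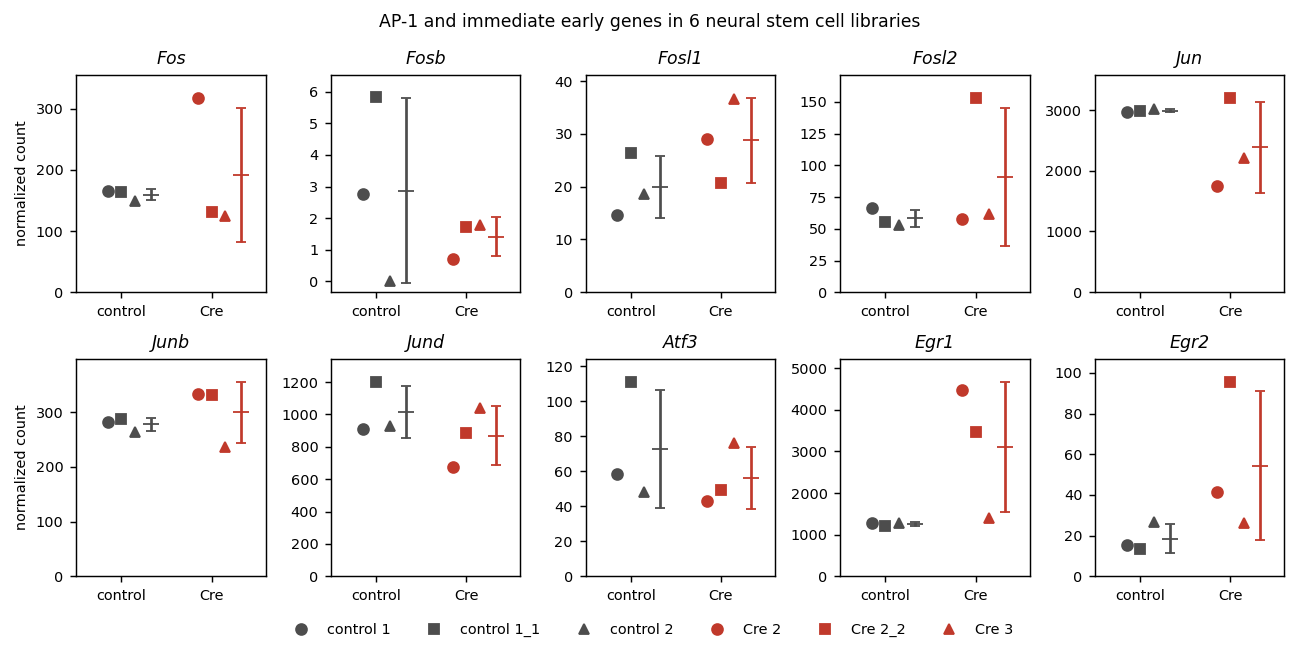
Normalized count (vertical axis, linear, a separate scale per gene) of each of the 10 members in 3 control libraries (grey) and 3 Cre-labelled libraries (red), with a marker shape per replicate, and the mean and SD of each group drawn to the right of the points. The control points of *Jun*, *Egr1* and *Fos* lie close together, and the Cre-labelled libraries spread apart, with *Egr1* replicates 2 and 2_2 at 4469 and 3456.5 and replicate 3 at 1403.

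*Egr1* (ENSMUSG00000038418), an early growth response factor that MAPK and serum response factor signals can induce, was at 1290.3, 1201 and 1269.6 normalized counts in control replicates 1, 1_1 and 2. It was at 4469, 3456.5 and 1403 in the Cre-labelled libraries, replicates 2, 2_2 and 3. Thus, 2 libraries were far above control, while replicate 3 was just above the highest control library. The 2 high libraries share a replicate number, and no label says whether they come from 1 culture. Mean control expression was 1254 ± 46.8 (SD, n = 3) and mean Cre-labelled expression 3110 ± 1562 (SD, n = 3), a ratio of 2.48. The log2 fold change was 1.15 (SE 0.32, 95% interval 0.45 to 1.86, limma adjusted p = 0.0446). This SE and interval rest on a single variance for both groups, moderated over all tested genes. The SD of log2(normalized count + 1) was 0.05 in control and 0.88 in the Cre-labelled libraries, so the interval may be too narrow. No fit with a separate variance per group was made. The exact permutation test gave p = 0.1, the smallest that 3 libraries against 3 can give. Without Cre replicate 3 the log2 fold change was 1.65 (limma adjusted p = 8.48e-05), in a fit that called 9.71% of tested genes, and without Cre replicate 2 it was 0.81 (limma adjusted p = 0.0454). The call was lost without Cre replicate 2_2 (log2 fold change 1.00, limma adjusted p = 0.176) and without any 1 of the control libraries (limma adjusted p between 0.131 and 0.136). It was also lost when Cre replicates 2 and 2_2 were averaged. A gene annotated on the other strand overlaps the exons of *Egr1*, and whether reads were counted by strand is not given in the sources used here, so reads from the 2 strands cannot be told apart. By Western blot, the authors reported strongly decreased phosphorylated ERK1 protein in *Tbl1xr1* knock-out NSCs, with and without added glutamate. How that protein measure relates to *Egr1* mRNA was not tested.

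*Egr2* (ENSMUSG00000037868), the relative best known from hindbrain segmentation and myelinating Schwann cells, was close to the lower end of what was tested. It had 17, 9 and 20 reads in control replicates 1, 1_1 and 2, and 60, 111 and 29 reads in Cre replicates 2, 2_2 and 3. As normalized counts these were 15.6, 13.2 and 26.7 in control and 41.6, 95.6 and 26.0 in the Cre-labelled libraries. The groups overlapped by less than 1 read, between control replicate 2 and Cre replicate 3. The log2 fold change was 1.36 (SE 0.46, 95% interval 0.35 to 2.37), the largest of the members, and missed the threshold with limma (adjusted p = 0.0876). DESeq2 on recovered reads called it at 1.56 (adjusted p = 0.0184), and edgeR on the same reads gave 1.56 without a call (adjusted p = 0.0711). Without Cre replicate 3 it was called as well (1.78, limma adjusted p = 0.028), and without Cre replicate 2_2 it was further from the threshold (0.86, limma adjusted p = 0.291).

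Both EGR genes were higher in Cre replicates 2 and 2_2 than in any control library, but their order differed, with *Egr1* highest in replicate 2 and *Egr2* in replicate 2_2. *Egr3*, from the list of other early transcription factors, stood at 7.3, 2.9 and 5.3 in control and 28.4, 161.8 and 23.3 in Cre replicates 2, 2_2 and 3. Its control mean of 5.2 was below the filter, so *Egr3* was tested only through its Cre-labelled libraries, and its call is a description and not support. It rose by a log2 fold change of 3.04 (SE 0.66, limma adjusted p = 0.015), and the call was kept in 12 of 15 alternatives, with log2 fold changes from 2.17, without Cre replicate 2_2, to 3.75, with DESeq2. *Egr4*, named after its values were seen, went the other way without passing the test, from 11.7 to 32 in control to 7.62 to 15.5 in the Cre-labelled libraries (log2 fold change -0.95, limma adjusted p = 0.243). *Egr2* and *Egr3* were both highest in Cre replicate 2_2, and *Egr3* alone of the 4 genes was several times above every control library in Cre replicate 3 as well.

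Levels can be compared between genes only per length of exon. Per kilobase of exon, *Egr1* made up 95.5% ± 1.61 (SD, n = 3) of the summed EGR level in control and 93.5% ± 4.64 (SD, n = 3) in the Cre-labelled libraries. The summed level of *Egr1* to *Egr4* was 435.7, 398.7 and 436.0 normalized counts per kilobase in control replicates 1, 1_1 and 2, against 1476.7, 1260.5 and 479.9 in Cre replicates 2, 2_2 and 3. The sum thus followed *Egr1*, and its groups did not overlap (exact permutation p = 0.1).

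Among the FOS genes, *Fos* (ENSMUSG00000021250), the classical early gene and dimer partner of JUN proteins, was at 165.2, 163.8 and 149.4 normalized counts in control replicates 1, 1_1 and 2. It was at 317.9, 130.9 and 125.4 in Cre replicates 2, 2_2 and 3. Cre replicate 2 was thus above and the other 2 below every control library. *Fos* averaged 159 ± 8.77 (SD, n = 3) in control and 191 ± 110 (SD, n = 3) in the others, and the log2 fold change was 0.12 (SE 0.30, 95% interval -0.54 to 0.79, limma adjusted p = 0.84). Its sign depended on Cre replicate 2, without which it was -0.31 (limma adjusted p = 0.281). The interval reaches well to either side of 0, so the data set no narrow bound on the change of *Fos*.

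*Fosl2* (ENSMUSG00000029135), also known as Fra-2 and slower to appear than *Fos* after stimulation, was at 66.1, 55.6 and 53.3 in control and at 57.5, 153.2 and 61.8 in Cre replicates 2, 2_2 and 3. A single library, Cre 2_2, was high, and the other 2 lay within the control range. The log2 fold change of 0.49 (SE 0.34, limma adjusted p = 0.414) became 0.04 without that library (limma adjusted p = 0.953). *Fosl1* (ENSMUSG00000024912), or Fra-1, which is itself induced by AP-1, had between 14 and 18 reads in control and between 24 and 42 in the Cre-labelled libraries. As normalized counts the groups overlapped, at 14.7 to 26.3 and 20.7 to 36.7 (log2 fold change 0.51, SE 0.36, limma adjusted p = 0.415). An antisense gene overlaps its exons. *Fosb* (ENSMUSG00000003545), whose splice form is known as a long-lived mark of repeated stimulation in neurons, had 3, 4 and 0 reads in control and 1, 2 and 2 reads in the Cre-labelled libraries. It was below the filter, and a difference was not detectable at this depth (exact permutation p = 0.5).

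*Jun* (ENSMUSG00000052684), the JUN protein with the strongest activation domain, had the highest level of the 10 members in control. It was at 2973.3, 2976.8 and 3023.4 normalized counts in control replicates 1, 1_1 and 2, and at 1741.1, 3200.8 and 2211.6 in Cre replicates 2, 2_2 and 3. Replicates 2 and 3 labelled Cre were thus below every control library, and replicate 2_2 was above them all. *Jun* averaged 2991 ± 28.0 (SD, n = 3) in control and 2384 ± 745 (SD, n = 3) under Cre, and the log2 fold change of -0.37 did not pass the test (SE 0.18, 95% interval -0.78 to 0.03, limma adjusted p = 0.235). Without Cre replicate 2_2 it was -0.61 and *Jun* was called lower (limma adjusted p = 0.0459), in a fit that called 4.95% of tested genes. The antisense gene *Junos*, which overlaps *Jun*, was at 13.8 to 26.7 in control and 24.1 to 27.0 in the Cre-labelled libraries, far below *Jun* itself.

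*Junb* (ENSMUSG00000052837), a weaker activator that can restrain JUN, was at 281.7, 286.7 and 264.1 in control and 333.1, 330.6 and 235.5 in the Cre-labelled libraries. The Cre-labelled libraries lay on both sides of control (log2 fold change 0.09, SE 0.17, limma adjusted p = 0.775). *Jund* (ENSMUSG00000071076), the member that is expressed most steadily and responds least to serum, was at 909.4, 1201 and 930.9 in control and 675.2, 887.6 and 1037.7 in the Cre-labelled libraries. Its groups overlapped too (log2 fold change -0.24, SE 0.17, limma adjusted p = 0.429), and an antisense gene at 5.33 to 13.2 in control overlaps it. *Atf3* (ENSMUSG00000026628), a stress-induced bZIP factor that pairs with JUN proteins, was at 58.7, 111.2 and 48.0 in control and 42.9, 49.1 and 76.1 in the Cre-labelled libraries. The log2 fold change of *Atf3* was -0.32 (SE 0.34, limma adjusted p = 0.606), with the sign set by control replicate 1_1, without which it was 0.03.

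**Figure D2:**
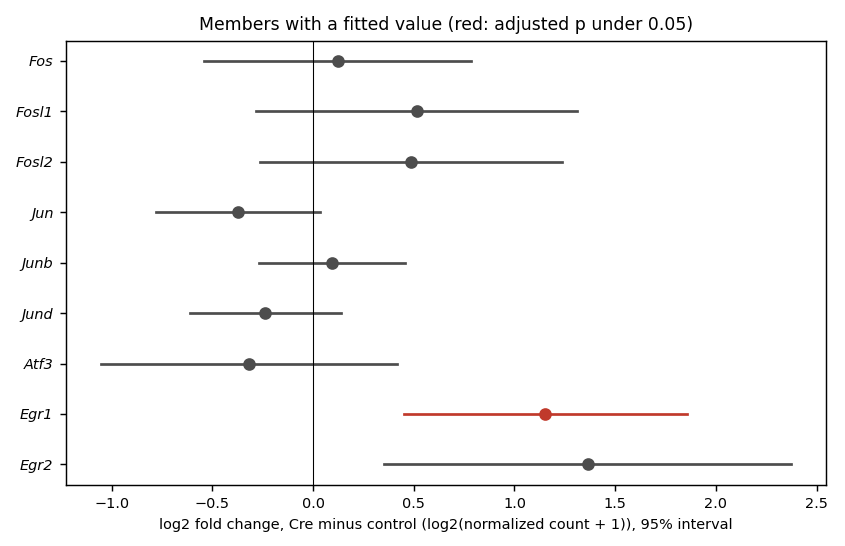
Log2 fold change of the Cre-labelled libraries over control (horizontal axis, on log2(normalized count + 1)) for the 9 members that passed the filter, with 95% intervals as lines and the called gene in red. The intervals use a single moderated variance for both groups, although the spread of the groups differed. The intervals of *Egr1* (0.45 to 1.86) and *Egr2* (0.35 to 2.37) lie above 0, and those of the other 7 cross it.

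The order of the levels was read per kilobase of exon. In control it was *Jun* at 938 ± 8.76 normalized counts per kilobase (SD, n = 3), *Egr1* at 404 ± 15.1, *Jund* at 352 ± 56.5, *Junb* at 154 ± 6.59, *Fos* at 67.8 ± 3.73 and *Atf3* at 36.6 ± 17.0. Below these were *Fosl1* at 11.7 ± 3.47, *Fosl2* at 9.96 ± 1.16, *Egr2* at 5.44 ± 2.12 and *Fosb* at 0.765 ± 0.78. *Egr1* and *Jund*, and also *Fosl1* and *Fosl2*, lay within their spread of each other. In the Cre-labelled libraries *Egr1*, at 1003 ± 504, had the highest mean and *Jun*, at 748 ± 234, the next, a difference within their spread. *Fosl1* at 16.9 ± 4.70, *Egr2* at 16.0 ± 10.7 and *Fosl2* at 15.5 ± 9.24 could not be ordered there.

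**Figure D3:**
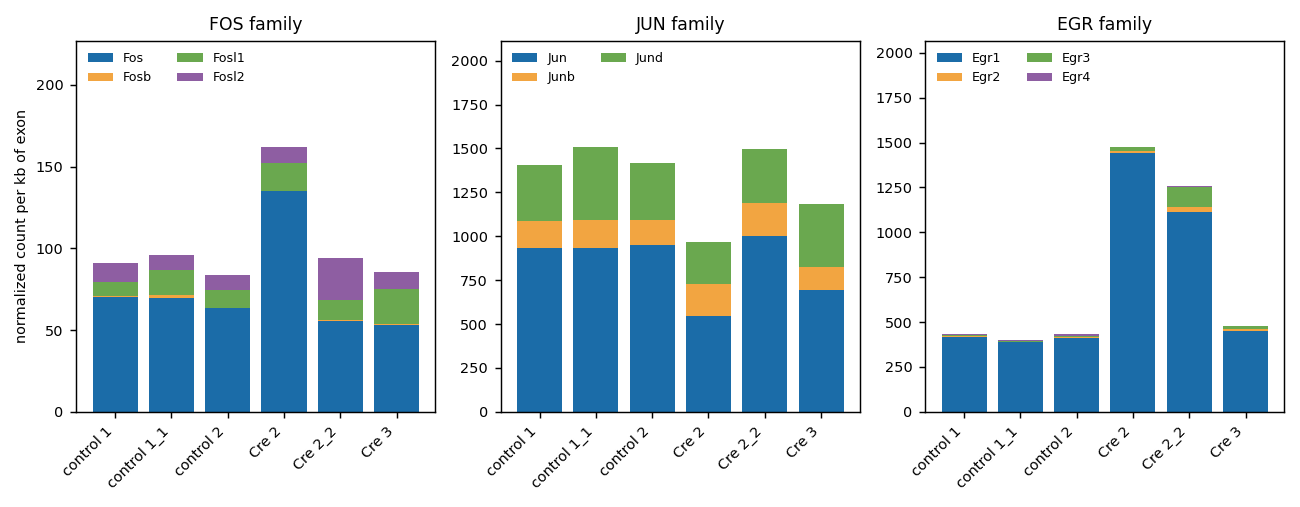
Normalized count per kilobase of exon (vertical axis, linear from 0, a separate scale per family) in each of the 6 libraries, stacked by gene for the FOS, JUN and EGR families. The tallest FOS and EGR bars are those of Cre replicate 2 (162 and 1477), which also has the shortest JUN bar (965).

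The summed JUN level was 1404.3, 1509.4 and 1417.6 normalized counts per kilobase in control and 964.9, 1495 and 1184.4 in Cre replicates 2, 2_2 and 3 (exact permutation p = 0.3). The summed FOS level was 90.9, 96.1 and 83.6 in control and 162.2, 94.4 and 85.8 in the Cre-labelled libraries (exact permutation p = 0.5). JUN transcripts were thus far more abundant than FOS transcripts in every library. Within the FOS sum, *Fos* held 75.3% ± 2.51 (SD, n = 3) in control and 68.1% ± 13.3 in the Cre-labelled libraries. Within the JUN sum, *Jun* held 65.0% ± 2.78 (SD, n = 3) in control and 60.8% ± 5.61, *Jund* 24.3% ± 2.88 and 25.1% ± 4.96, and *Junb* 10.6% ± 0.413 and 14.1% ± 4.37. For the 7 shares tested the exact permutation p was between 0.2 and 0.8 (adjusted p = 0.8 for all 7). With 3 libraries against 3 this test cannot give a p-value under 0.1. No share could therefore have passed, and the result does not show that the shares were equal. The share of *Junb* was 19.1% in Cre replicate 2 and 11.0% and 12.2% in the other 2, beside 10.3% to 11.1% in control.

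For most of these genes, as for most tested genes, the Cre-labelled libraries were spread more widely than the control libraries. The SD of log2(normalized count + 1) was larger in the Cre-labelled libraries for 7 of the 9 tested members, where 65.5% of all tested genes had a larger SD in those libraries. All 9 were above the median SD of tested genes in the Cre-labelled libraries, which was 0.25, while 5 of the 9 were below the control median of 0.18. *Egr1* had an SD of 0.05 in control, where 92.1% of tested genes had an SD at least as large, and 0.88 in the Cre-labelled libraries, where 3.91% did. For *Jun* the SDs were 0.01 (99.4% of tested genes at least as large) and 0.44 (22.4%). *Fos* went from 0.08 (84.4%) to 0.75 (6.39%), and *Egr2* from 0.50 (9.12%) to 0.93 (3.21%). The exceptions were *Atf3*, with 0.62 in control and 0.42 in the Cre-labelled libraries, and *Fosl1*, with 0.403 and 0.402. With 3 libraries a group, an SD is itself a rough value, and no test of the spread was made.

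The members did not share a high library. Of the 9, 7 were highest in a library labelled Cre, beside 8375 of all 14840 tested genes. *Fos*, *Junb* and *Egr1* were highest in Cre replicate 2, *Fosl2*, *Jun* and *Egr2* in Cre replicate 2_2, and *Fosl1* in Cre replicate 3. *Jund* and *Atf3* were highest in control replicate 1_1. *Fos* and *Jun*, whose proteins pair, were thus opposite in Cre replicate 2, which had the highest *Fos* (317.9) and the lowest *Jun* (1741.1) of all 6 libraries.

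**Figure D4:**
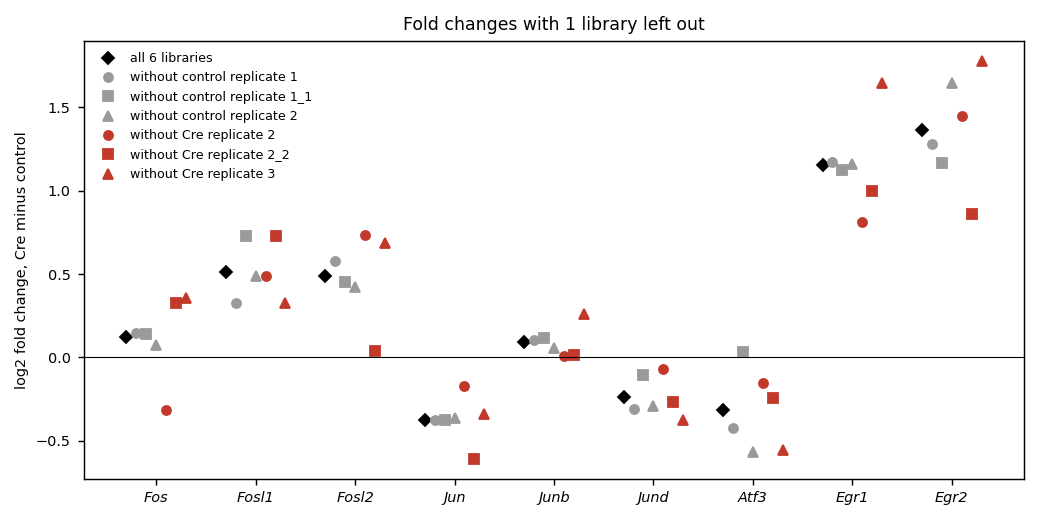
Log2 fold change of 9 members (vertical axis, Cre-labelled libraries minus control) with all 6 libraries (black) and with each library left out in turn (grey for control, red for Cre, a marker shape per replicate). The values of *Egr1* and *Egr2* stay above 0 throughout (0.81 to 1.65 and 0.86 to 1.78), *Jun* stays below 0 (-0.61 to -0.17), and *Fos* and *Atf3* each cross 0 once.

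The genes whose pattern was most like that of 3 members were found by the root mean square difference of centred log2 values over the 6 libraries. For *Fos*, whose own deviations from its mean had a root mean square of 0.44, the nearest were *Ccng2* (0.02), *Rpusd4* (0.07) and *AC139754.2* (0.11). For *Jun*, with 0.32, they were *Tenm4* (0.06), *Mdn1* (0.08) and *Zcchc10* (0.08). For *Egr1*, with 0.77, they were *Fryl* (0.18), *Lgmn* (0.18) and *Gm37390* (0.21). No member was among the nearest 3 of *Fos*, *Jun* or *Egr1*. The member closest by rank to any of these 3 was *Egr2*, which stood 641st from *Egr1* (0.54). Pairs among the other members were not compared. *Junb* stood 1490th from *Fos* (0.37) and *Jund* 1530th from *Jun* (0.27). With so many genes and 6 libraries, near matches are found for most profiles, and no p-value is given.

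The other genes of the pathway were read from lists in the same fit. Of 20 other immediate early transcription factors 19 were tested, with 2 called higher and 1 lower and a median of -0.08. Of the 2 called higher, *Egr3* passed the filter only through the Cre-labelled libraries. Beside *Egr3*, *Klf4*, a zinc finger factor, rose from 744.2 to 997.6 in control to 1609.5 to 3424.8 in the Cre-labelled libraries (log2 fold change 1.47, limma adjusted p = 0.00283). *Ier5* fell from 1119 to 1419 in control to 792 to 876.1 (log2 fold change -0.58, limma adjusted p = 0.0173), and the call was lost without control replicate 1, control replicate 2 or Cre replicate 2_2. The order of the libraries for *Klf4* was not that of *Egr1*, since *Klf4* was highest in Cre replicate 3, where *Egr1* was nearest to control.

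**Figure D5:**
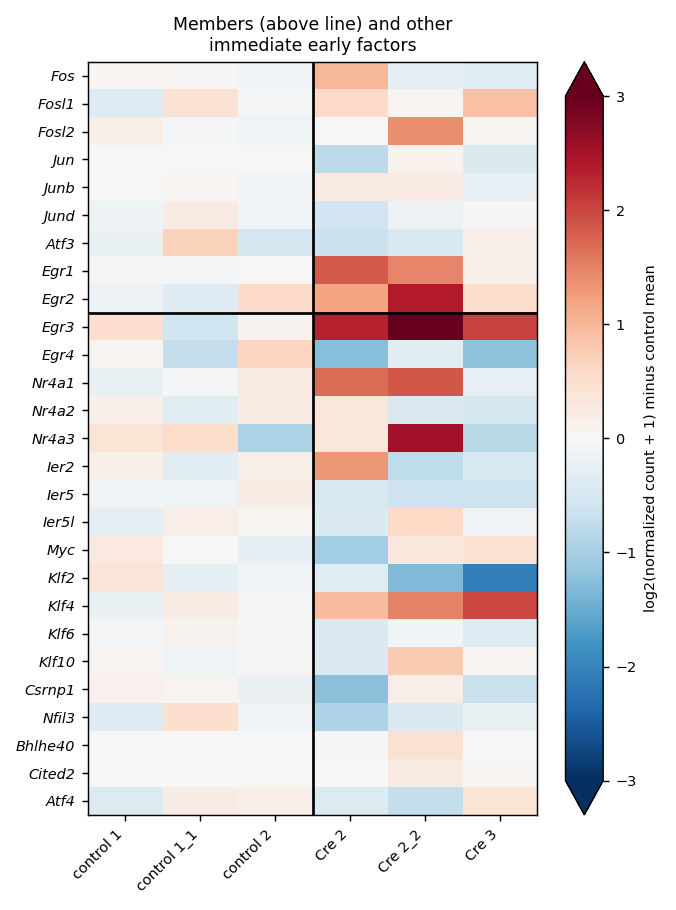
Difference of log2(normalized count + 1) from the control mean (colour scale from -3 to 3, arrows mark values past its ends) for the 9 tested members above the line and the other immediate early transcription factors below it, in 3 control libraries and 3 Cre-labelled libraries. Control columns are pale, and the darkest cells lie in different Cre-labelled libraries for different genes, with *Egr3* highest in replicate 2_2 (161.8) and *Klf4* in replicate 3 (3424.8).

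Of 31 other early genes that encode effectors rather than transcription factors, 28 were tested and 1 was called in each direction, with a median log2 fold change of -0.12. *Zfp36*, which speeds the decay of AU-rich transcripts, *Fos* among them, rose (log2 fold change 1.14, limma adjusted p = 0.0301), and the kinase gene *Plk3* fell (-0.89, limma adjusted p = 0.0353). Each of these calls was lost in several alternatives, in 5 of 16 for *Zfp36* and in 7 of 16 for *Plk3*. *Dusp6*, a phosphatase of ERK that was named after its values were seen, was at 1838.7 to 2608.6 in control and at 4660.8, 4029.8 and 1679.7 in Cre replicates 2, 2_2 and 3, with replicate 3 below every control library (log2 fold change 0.55, limma adjusted p = 0.291). Without Cre replicate 3 *Dusp6* was called (1.01, limma adjusted p = 0.00319), as it was in no other of 16 alternatives. Of 14 factors upstream of the members (SRF, its TCF and MRTF partners, CREB and its coactivators, and the EGR corepressors NAB), 13 were tested, with a median of 0.03. limma, edgeR and DESeq2 each called 0 of them. At an unadjusted limma p-value under 0.05 there were 2 higher and 1 lower, again without a background share.

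Of 22 genes known as AP-1 targets in other cells 13 were tested, with 1 called higher, 3 lower and a median log2 fold change of -0.34. *Hmga2*, a chromatin protein, rose by 1.77 (limma adjusted p = 0.00238). *Timp1* (-1.27, limma adjusted p = 0.041), *Ccnd1* (-0.68, limma adjusted p = 0.0376) and *Cdkn1a* (-0.45, limma adjusted p = 0.037) fell. *Ccnd1*, which encodes cyclin D1, went from 16690.5 to 20873.8 in control to 9165 to 14527.5 in the Cre-labelled libraries, and was lowest in Cre replicate 3. The call of *Timp1* was lost in 8 of 15 alternatives, that of *Cdkn1a* in 8 of 16 and that of *Ccnd1* in 6 of 16, and all 3 were lost together without a filter on low genes, after averaging control libraries 1 and 1_1, and without any 1 of the control libraries. These genes also answer to other factors, and their relation to the members was not tested.

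Markers of the labelled cells and of other cell types, and heat shock genes, are given beside the results on the members. All 10 NSC markers were expressed and 2 were called, both lower (*Sox1*, log2 fold change -2.27, and *Nes*, -0.85), with summed levels of 33769.2 to 37517.8 in control and 32309.3 to 34194.6 under Cre. Of 7 tested astrocyte markers (9 listed) 4 were higher, with summed levels of 12246.6 to 13745.9 in control and 19703.6 to 23177.7 under Cre. The largest of these 4 changes was that of *S100b* (log2 fold change 3.10), the call of *Aqp4* was lost in 5 of 15 alternatives, and *Aldh1l1*, named after its values were seen, went the other way without passing the test (14.7 to 19.0 in control, 2.58 to 9.003 under Cre, log2 fold change -1.65, limma adjusted p = 0.065). Of 6 tested oligodendrocyte lineage markers (8 listed) 3 were higher, with sums of 12486.4 to 14402.2 and 17229 to 19637.8. limma, edgeR and DESeq2 each called 0 of 5 tested neuron markers (10 listed), 0 of 2 microglial markers (8 listed, 5 of them with no more than 3 reads in any library) and 0 of 1 endothelial marker (6 listed), and at an unadjusted limma p-value under 0.05 there was 1 of these 8, the endothelial one, lower. Of 7 fibroblast and pericyte markers 0 passed the filter, and *Col1a2* and *Pdgfrb* had 0 reads in every library. Of 13 heat shock genes, not all of which respond to handling, 10 were tested and 2 were called, both lower (*Hspd1*, log2 fold change -0.69, and *Hsph1*, -0.49). Their summed level was 69998.7 to 78154.2 in control and 51931.9 to 69992.2 in the Cre-labelled libraries. The part of these genes in the values of the members was not tested.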

How the data were processed

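RNA-seq was done on 6 NSC libraries, 3 labelled Cre and 3 control. The authors prepared them with a TruSeq kit and mapped the reads (TopHat per the methods, STAR 2.7 and mm10 per the labels). The read counter, its strand setting and its annotation are not given in the sources used here. The authors deposited a signal per gene and library, the normalized count, which is the read count divided by a DESeq2 size factor. The deposited table also holds the authors' own comparison (a mean, log2 fold changes, their standard errors and Wald statistics as a score, and p-values with adjusted p-values), which was not used. Of 53379 genes, 873 have no name, and 1 gene with a blank value was left out.

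The value of 1 read was found in each library from its lowest normalized counts, and 100% of values were then whole reads to within a relative 0.001. Differences were tested with limma 3.58.1 in R 4.3.3 (lmFit, trended eBayes) on log2(normalized count + 1), a scale that understates the change of low genes, for the 14840 genes with a mean of at least 10. The threshold was a Benjamini-Hochberg adjusted p-value of 0.05 over all tested genes. DESeq2 is the study's test, but the deposited values are normalized, so edgeR 4.0.16 (quasi-likelihood, TMM), with 1483 genes called, and DESeq2 1.42.0, with 1755, were run on the recovered reads as alternatives. The others were leaving out each library, averaging libraries with like numbers, TMM or total-count scaling, pseudocounts of 0.5 and 5, no filter, a minimum mean of 50 and a threshold of 0.1. Exact permutation tests were two-sided. The fit was tested on simulated data with the same dispersion in both groups, so that test does not cover the unequal spread described above. Sums and shares used exon lengths of GENCODE M1 (the union of the exons of a gene), an mm9 annotation that may differ from the one used for counting, and promoters came from RefSeq for GRCm38.p6. Motifs were searched with Python 3.11.15, and figures were drawn with matplotlib 3.10.9.

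The members and the gene lists were chosen with earlier results of these data known. Named genes were all 10 members, *Tbl1xr1*, up to 4 called genes per other list with the largest change, and the 3 nearest profiles of *Fos*, *Jun* and *Egr1*. *Junos* is named for its overlap with *Jun*, and *Col1a2* and *Pdgfrb* as markers without reads, and other genes outside this rule are said to be chosen after their values were seen. Depth limits the members with few reads, *Fosb*, *Fosl1* and *Egr2*. The list of other AP-1 family bZIP genes is not reported here.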

Additional observations from a re-analysis of the deposited data

How the results depend on the processing

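Across 17 alternatives the log2 fold change of *Egr1* stayed above 0 and the gene was called in 10. The call was lost at a mean of at least 50 (1.15, limma adjusted p = 0.0511), with control libraries 1 and 1_1 averaged (1.15, limma adjusted p = 0.134) and with Cre libraries 2 and 2_2 averaged (0.91, limma adjusted p = 0.0828). *Egr2* was called with DESeq2 (1.56) and at an adjusted p-value under 0.1 (1.36). The members called higher were thus 0 in those 3 settings that lost *Egr1* and 2 in those 2 that added *Egr2*. With 1 library left out, log2 fold changes ran from 0.81 to 1.65 for *Egr1*, 0.86 to 1.78 for *Egr2*, -0.31 to 0.36 for *Fos* (reversed without Cre replicate 2, -0.31), -0.56 to 0.03 for *Atf3* (reversed without control replicate 1_1, 0.033) and -0.61 to -0.17 for *Jun*, and members called higher from 0 to 2 and lower from 0 to 1. *Fosl1*, *Fosl2*, *Junb* and *Jund* were called in 0 alternatives, and no share of a family member changed its side of the threshold, which 3 libraries against 3 cannot reach.

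Over all tested genes 355 were higher and 306 lower with the control libraries averaged, 1132 and 1248 at an adjusted p-value under 0.1, and 313 to 1181 and 250 to 1206 with 1 library left out. The lowest total was without control replicate 1 (563) and the highest without Cre replicate 2 (2387). Among other early transcription factors 1 was higher at a mean of at least 50 and with controls averaged. With controls averaged, 0 effectors were called in either direction and 0 AP-1 targets and 0 heat shock genes were lower. Effectors lower were also 0 without a filter and with Cre libraries averaged, and 2 at an adjusted p-value under 0.1, and AP-1 targets lower were 0 without a filter. Upstream factors were 1 higher and 1 lower with Cre libraries averaged and at an adjusted p-value under 0.1. With 1 library left out the ranges were 1 to 3 higher and 0 to 1 lower for transcription factors, 0 to 3 and 0 to 1 for effectors, 0 to 2 and 0 to 1 for upstream factors, 1 to 2 and 0 to 3 for AP-1 targets and 0 to 1 and 0 to 3 for heat shock genes. The causes were not tested. No paired analysis was possible because the groups share only 1 replicate number. Fits that leave 2 libraries in a group estimate its spread from few values.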
